A study of Homo sapiens with 2 samples.

Results

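Integrins, laminins and collagens are the molecules by which epithelial cells hold on to the matrix beneath them. Integrins are cell-surface receptors made of an alpha and a beta subunit, and the pair decides whether the receptor binds laminin, collagen or proteins that carry an RGD motif such as fibronectin. Laminins are secreted trimers of an alpha, a beta and a gamma chain and form the sheet of the basement membrane to which epithelial integrins attach. Collagens are trimers that build the basement membrane network, the fibrils of the stroma, the filaments that anchor one to the other, and a few cell-surface proteins.

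The 41 genes described here were chosen by gene symbol from the table of 16654 genes: 18 integrin subunits, 7 laminin chains and 16 collagen chains, and all 41 were found. RNA was sequenced from the established line HUCCT-1, which derives from a human bile duct cancer, after 48 h with vehicle (1 library) or with 5 μM XY101, an antagonist of the nuclear receptor RORγ (1 library). Both groups were the same line grown in RPMI1640 with serum, and the vehicle library carries the title of a second control. Each condition is a single library, so no p-value or standard deviation could be given, and a difference between single cultures and an effect of XY101 cannot be told apart. In bulk RNA, fewer cells of a type and less RNA per cell cannot be told apart either.

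Values are FPKM, fragments scaled to transcript length and to the number of mapped fragments, which allow levels of different genes to be set side by side. Differences are given as the log2 ratio of XY101 to vehicle after adding 0.1 FPKM to each value, and folds are on that same scale, which makes differences of low genes look smaller than they are. The spacing of low values gave an approximate depth of 17000000 fragments in each library, with 83.3% of 84 values in the vehicle library and 81.2% of 80 values in the XY101 library coming out whole within 0.2 fragments. The depth was chosen to make that share high, and the median share over all depths and offsets searched was 40.3% and 40.0%. From that depth and the length of each gene's canonical transcript, an approximate 95% interval of each log2 ratio was computed (exact binomial), which covers counting error only and not the difference between cultures. This interval left out 0 for 24 of the 31 members with a mean of at least 1 FPKM. With the shortest coding transcript, which gives the fewest fragments, it did so for 10 of them. Neither count was made over all genes, so neither sets the members apart from other genes. Over all 10894 genes with a mean of at least 1 FPKM the median log2 ratio was 0.09, and 64.4% of genes lay above 0.

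The markers of biliary epithelium were present in both libraries, and all 7 had a mean of at least 1 FPKM, with a median log2 ratio of -0.25, 2 above 0 and 5 below. The biliary keratin gene KRT7 was 5080.23 and 4184.91 FPKM (vehicle first, XY101 second, here and below), and KRT19 was 1909.49 and 1699.06 FPKM. The epithelial adhesion gene EPCAM was 254.18 and 275.12 FPKM (log2 ratio 0.11), and the biliary transcription factor gene SOX9 was 14.61 and 7.41 FPKM (-0.97), at least 1.5-fold lower, and its part in the values of the members was not tested. Of 8 fibroblast markers outside the members, 7 were under 1 FPKM on average, and the summed level of the list was 1.6 FPKM with vehicle. The fibroblast marker above 1 FPKM was LUM, at 1.05 and 1.37 FPKM (0.35). The fibroblast genes DCN, THY1 and FAP were 0.03, 0.05 and 0 FPKM with vehicle and listed at 0 with XY101. Endothelial markers summed to 0.73 FPKM with vehicle. Among leukocyte markers PTPRC was 0.02 FPKM and then listed at 0, while CD68, which encodes a lysosomal protein, was 63.58 and 47.17 FPKM. Of 5 hepatocyte markers 2 were in the table: SERPINA1, the gene of a secreted protease inhibitor, was 179.49 and 214.25 FPKM (0.26), and APOA1 was 0.09 and 0.1 FPKM.

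Of the 41 members, 31 had a mean of at least 1 FPKM, and all 31 reached 1 FPKM in each library, so none passed this filter through a single library. They were 13 integrin subunits, 7 laminin chains and 11 collagen chains. The 10 others are accounted for with their families below. Most of the 31 were close to equal between the libraries: 26 differed by less than 1.5-fold. At least 1.5-fold higher with XY101 were 4 members (ITGB3, ITGA1, COL17A1 and COL16A1), and 1 member, COL13A1, was at least 1.5-fold lower. These 5 are 16.1% of the 31, and among all 10894 genes 7.22% differed by that much, with 4.9% higher and 2.32% lower. At 2-fold, 1 member was higher (ITGB3) and none was lower, beside 1.17% higher, 0.698% lower and 1.86% in either direction among all genes. The median log2 ratio was 0.04 over the 31 members, below the 0.09 of all genes, and 17 members lay above 0 and 14 below.

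Because the median gene lay at 0.09, the calls were also counted after centring on it. The split then moved from 4 higher and 1 lower to 2 higher (ITGB3 and ITGA1) and 3 lower (COL13A1, ITGA3 and LAMB3), beside 3.08% and 3.36% of all genes. Before centring, COL17A1 and COL16A1, at log2 ratios of 0.67 and 0.60, lay beyond the 1.5-fold limit of 0.58. ITGA3 and LAMB3, both at -0.51, fell short of it. After centring COL17A1 rounded to the same 0.58 but fell just under the limit, and COL16A1 stood at 0.50.

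**Figure D1:**
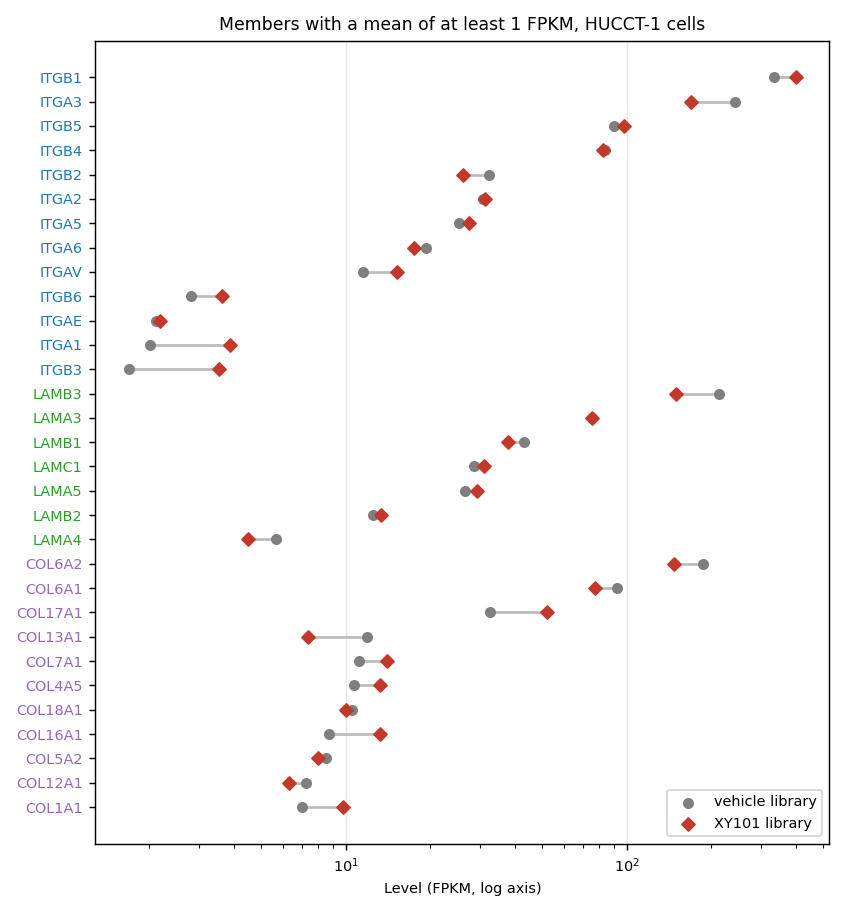
Level of the 31 members with a mean of at least 1 FPKM, on a log axis in FPKM, with grey circles for the vehicle library and red diamonds for the XY101 library. ITGB1 stood highest in both libraries, at 333.12 and 400.63 FPKM, and the widest gaps lie at the low end of the integrins, at ITGA1 and ITGB3.

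The RefSeq promoter table (GRCh38.p14) held 32 of the 41 members, and the 250 bases before the start are shown for those on which the differences turn. The first set is the members that passed 1.5-fold and have an entry; ITGB3 has none. They are followed by LAMB3, the laminin chain that differed most, with the first of its 3 listed starts. Each runs 5′ to 3′ on the strand of its gene, and capitals mark matches, on either strand, to any of 5 motifs, which may overlap each other. The half-site that ROR receptors bind was searched as AGGTCA and the site of AP-1 factors as TGANTCA. The GC box bound by SP factors was searched as GGGCGG. The E-box bound by helix-loop-helix factors such as MYC was searched as CACGTG. The TATA box, which places the start of transcription, was searched as TATAAA.
ITGA1, chr5:52787666-52787915, plus strand: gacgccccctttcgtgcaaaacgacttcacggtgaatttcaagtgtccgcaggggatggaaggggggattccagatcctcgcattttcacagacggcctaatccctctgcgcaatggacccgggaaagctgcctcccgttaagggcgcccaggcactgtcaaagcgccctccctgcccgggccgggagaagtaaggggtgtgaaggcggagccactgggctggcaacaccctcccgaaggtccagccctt
COL17A1, chr10:104085881-104086130, minus strand: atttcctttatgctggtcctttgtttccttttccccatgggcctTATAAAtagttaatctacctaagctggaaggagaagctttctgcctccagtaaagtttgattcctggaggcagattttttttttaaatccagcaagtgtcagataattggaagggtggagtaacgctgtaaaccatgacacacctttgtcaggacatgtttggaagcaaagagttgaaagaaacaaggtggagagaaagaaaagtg
COL16A1, chr1:31704018-31704267, minus strand: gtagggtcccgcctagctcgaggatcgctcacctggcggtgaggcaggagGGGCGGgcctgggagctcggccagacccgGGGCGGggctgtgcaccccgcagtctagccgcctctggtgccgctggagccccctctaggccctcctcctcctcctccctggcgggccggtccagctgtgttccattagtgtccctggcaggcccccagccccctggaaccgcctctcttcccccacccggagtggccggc
COL13A1, chr10:69801656-69801905, plus strand: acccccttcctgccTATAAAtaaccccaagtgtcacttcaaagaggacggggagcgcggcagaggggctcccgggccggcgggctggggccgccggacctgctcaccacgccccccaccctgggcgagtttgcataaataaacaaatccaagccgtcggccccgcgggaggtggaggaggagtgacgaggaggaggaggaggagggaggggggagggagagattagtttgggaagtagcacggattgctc
LAMB3, chr1:209652426-209652675, minus strand: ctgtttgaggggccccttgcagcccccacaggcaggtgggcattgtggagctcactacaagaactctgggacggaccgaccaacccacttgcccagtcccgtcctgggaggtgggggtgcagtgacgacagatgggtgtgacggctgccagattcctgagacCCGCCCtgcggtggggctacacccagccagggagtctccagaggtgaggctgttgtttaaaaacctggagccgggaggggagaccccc

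None of these stretches held AGGTCA, which was found in 12.1% of the 35116 windows of the table cut to the same length. Among the first listed starts of the 32 members, COL7A1 was the 1 gene with AGGTCA, at 2 places, and its stretch is shown for that reason.
COL7A1, chr3:48595330-48595579, minus strand: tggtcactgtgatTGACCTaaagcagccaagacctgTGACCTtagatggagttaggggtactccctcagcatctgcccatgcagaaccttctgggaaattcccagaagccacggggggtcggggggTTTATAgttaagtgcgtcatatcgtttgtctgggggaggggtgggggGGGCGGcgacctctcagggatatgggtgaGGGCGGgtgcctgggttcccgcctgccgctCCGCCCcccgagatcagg
The 2 matches lie on the minus strand of this reading, at bases -237 to -232 and -214 to -209 from the start. At the first listed starts, GGGCGG was found in 19 of the 32 members (59.4%, beside 42.6% of all windows). TATAAA was found in 5 (15.6%, beside 10.7%), COL17A1 at -206 to -201 and COL13A1 at -236 to -231 among them. It lay at -32 to -27 in COL6A2, on the strand of the gene. In ITGA6 (-32 to -27) and COL7A1 (-124 to -119) the match was on the opposite strand. TGANTCA was found in 1 member, LAMA3 (3.12%, beside 6.57%), and CACGTG in 1, ITGA6 (beside 6.34%). Later starts held further matches, among them TGANTCA at start 3 of LAMB3 (-67 to -61) and AGGTCA at start 2 of ITGAV (-52 to -47). TATAAA was also found at start 2 of ITGB1 and of COL18A1. The table holds several starts for some genes and also non-coding genes, and a match is a description of these letters and not a binding site.

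Among the integrin subunits ITGB3 and ITGA1 were at least 1.5-fold higher, and the other 11 that passed the filter differed by less. The 13 integrin subunits had a median log2 ratio of 0.11, with 9 above 0 and 4 below, 2 at least 1.5-fold higher and none at least 1.5-fold lower. These calls are 15.4% of the 13, beside 7.22% of all genes. ITGB3, the beta subunit of the vitronectin receptor, was 1.69 and 3.55 FPKM. This is 2.04-fold higher, a log2 ratio of 1.03 with a counting interval from 0.8 to 1.35, and the lowest vehicle level of the 31 members. It was under 2-fold, though above 1.5-fold, after centring (0.93), under upper quartile scaling (0.97) and with a pseudocount of 1 FPKM (0.76). With the shortest coding transcript in place of the canonical one the interval ran from 0.51 to 1.67. ITGB3 shares 2266 of its 6829 annotated exon bases with a readthrough gene on the same strand, which is not separated from it here. ITGAV, the alpha subunit that pairs with ITGB3, was 11.49 and 15.22 FPKM (log2 ratio 0.40). ITGB6, an epithelial partner of ITGAV that activates latent TGF-beta, was 2.81 and 3.64 FPKM (0.36), and ITGB5, its most abundant dedicated partner, was 90.29 and 97.46 FPKM (0.11). ITGB5 thus exceeded ITGB3 by 53.4 times with vehicle and 27.5 times with XY101. ITGB8, the remaining partner, was 0.66 and 0.59 FPKM and did not pass the filter. ITGA5, the fibronectin receptor subunit, was 25.23 and 27.45 FPKM (0.12). The 6 RGD-binding subunits that passed the filter include ITGB1 (0.27), which is shared with the collagen and laminin receptors. The 6 lay between 0.11 and 1.03, with a median of 0.31 beside 0.09 for all genes, of which 64.4% lay above 0. Only ITGB3 among them passed 1.5-fold, and ITGB5 and ITGA5 stood at 0.02 and 0.03 after centring on the median gene.

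Among the collagen-binding subunits the difference was in ITGA1. ITGA1, which pairs with ITGB1 to bind collagen IV, was 2.02 and 3.87 FPKM, 1.87-fold higher (log2 ratio 0.91, counting interval 0.75 to 1.13). ITGA1 shares 499 of its 18545 annotated exon bases with PELO, a ribosome rescue gene on the same strand. PELO stood at 15.12 and 15.59 FPKM. ITGA1 also shares 571 exon bases with the processed pseudogene RPL17P21 on the same strand. On the opposite strand it shares 1385 with the non-coding gene ITGA2-AS1 and 109 with PELO-AS1. No FPKM was at hand for RPL17P21, ITGA2-AS1 or PELO-AS1. How reads of the shared bases were divided is not settled. ITGA2, the other collagen-binding alpha subunit above 1 FPKM and the neighbour of ITGA1 on chromosome 5, was 30.9 and 31.31 FPKM (0.02, or -0.07 after centring). The ratio of ITGA2 to ITGA1 was therefore 15.3 with vehicle and 8.09 with XY101. The mesenchymal collagen receptor subunits ITGA10 and ITGA11 were 0.05 and 0.02 FPKM with vehicle and 0.02 and 0 FPKM with XY101.

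ITGB1, the common beta subunit of the collagen, laminin and fibronectin receptors, was the most abundant member at 333.12 and 400.63 FPKM (log2 ratio 0.27, counting interval 0.24 to 0.29). ITGA3, its most abundant laminin-binding partner, was 241.98 and 169.32 FPKM, 1.43-fold lower (log2 ratio -0.51, counting interval -0.55 to -0.48, or -0.81 to -0.22 with the shortest coding transcript). ITGB1 was therefore 1.38 times the level of ITGA3 with vehicle and 2.37 times with XY101. ITGA6, which forms a laminin receptor with ITGB1 or, at the hemidesmosome, with ITGB4, was 19.36 and 17.48 FPKM (-0.15). ITGB4, which pairs with ITGA6 alone, was 83.73 and 82.24 FPKM (-0.03), so it exceeded its only partner by 4.32 times with vehicle and 4.7 times with XY101. ITGA7, the laminin receptor subunit of muscle, was 0.10 and 0.08 FPKM.

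ITGA3 made up most of the alpha subunit RNA. Of the summed FPKM of 17 integrin alpha genes, 333.43 with vehicle and 267.05 with XY101, ITGA3 held 72.6% and 63.4%. Because ITGA3 is most of this sum, its lower value raises the shares of the others even at an equal level: ITGA2, nearly equal in FPKM, held 9.27% and 11.7%, and ITGA6, lower in FPKM, held 5.81% and 6.55%. ITGAV held 3.45% and 5.7%. Among 8 beta genes ITGB1 held 61.1% and 65.2%, ITGB5 16.6% and 15.9% and ITGB4 15.4% and 13.4%. These are shares of FPKM and not of counted fragments, so no interval was attached.

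The leukocyte integrin ITGB2 was well above 1 FPKM without its partners. ITGB2 was 32.46 and 26.09 FPKM (log2 ratio -0.31, counting interval -0.43 to -0.2), similar in level to ITGA2. Its alpha partners ITGAL, ITGAM, ITGAX and ITGAD were 0, 0.1, 0 and 0 FPKM with vehicle and 0.01, 0.05, 0 and 0 FPKM with XY101. ITGAE, which pairs with ITGB7 to bind E-cadherin, was 2.12 and 2.19 FPKM, and ITGB7 was 0.23 and 0.59 FPKM. ITGAE shares 427 exon bases with HASPIN on the opposite strand, and whether the counting used strand is not given. ITGA4 was 0.05 FPKM with vehicle and listed at 0 with XY101.

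**Figure D2:**
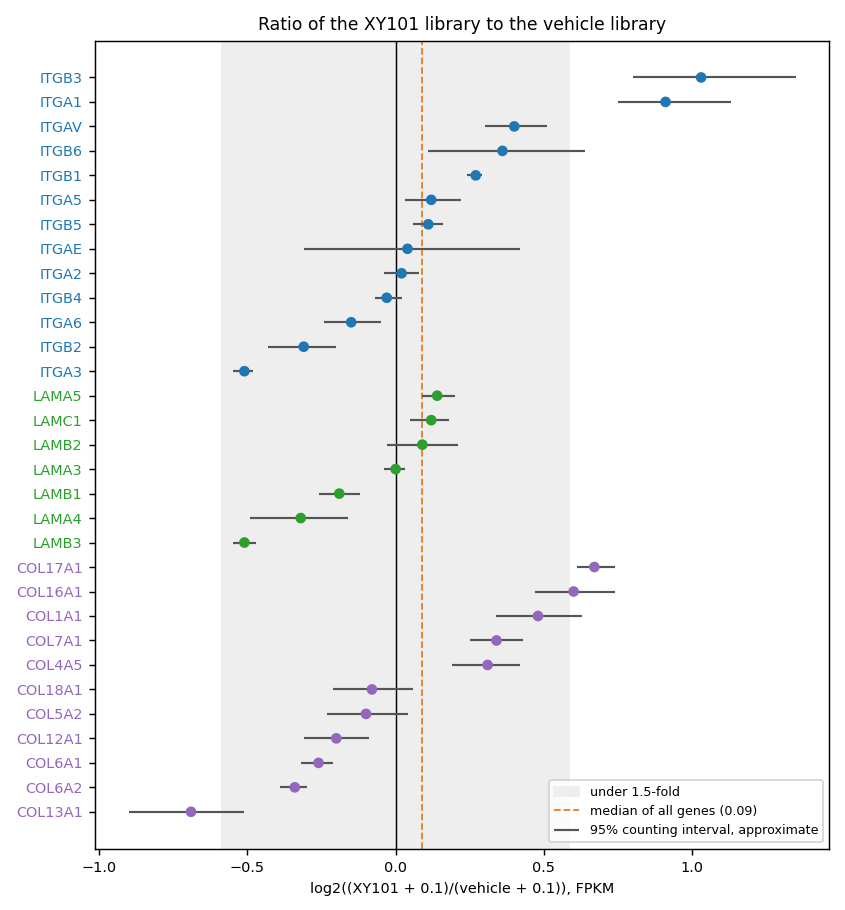
log2 ratio of XY101 to vehicle for the 31 members (integrins blue, laminins green, collagens purple), with approximate 95% counting intervals as lines, the grey band for differences under 1.5-fold and the dashed line for the median of all genes at 0.09. ITGB3, ITGA1 and COL17A1 lie outside the band on the higher side with their whole intervals, COL17A1 nearest to it. The points of COL16A1 on the higher side and COL13A1 on the lower side also lie outside, but their intervals run into the band.

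All 7 laminin chains passed the filter, and their median log2 ratio was 0.00, with 3 above 0, 4 below and none at 1.5-fold. Among all genes the median was 0.09, 64.4% lay above 0 and 7.22% differed by 1.5-fold. LAMB3, the beta chain of the epithelial laminin that anchors hemidesmosomes, was 212.51 and 149.42 FPKM. This is 1.42-fold lower (log2 ratio -0.51, counting interval -0.55 to -0.47, or -0.62 to -0.39 with the shortest coding transcript). LAMA3, the alpha chain of the same trimer, was 75.11 and 75.05 FPKM. In FPKM, LAMB3 was 2.83 times LAMA3 with vehicle and 1.99 times with XY101. This ratio depends on the transcript lengths behind the FPKM, which are not given. At the canonical lengths of 4014 bases for LAMB3 and 10651 for LAMA3, the vehicle values correspond to approximately 13417 and 13217 fragments. LAMB3 and ITGA3, a chain of the trimer and a subunit of its receptor, were the third and second most abundant members. Both had a log2 ratio of -0.51, or -0.60 and -0.61 after centring. LAMA3 stood at 0.00, and the laminin receptor subunits ITGA6, ITGB4 and ITGB1 at -0.15, -0.03 and 0.27. A link between LAMB3 and ITGA3 was not tested.

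The other laminin chains all differed by less than 1.5-fold. LAMA5, the alpha chain found in most adult basement membranes, was 26.62 and 29.41 FPKM (0.14). LAMC1, the gamma chain of most laminins, was 28.64 and 31.11 FPKM (0.12) and LAMB1 was 43.03 and 37.73 FPKM (-0.19). LAMB2 was 12.52 and 13.32 FPKM (0.09), and LAMA4, a chain best known from blood vessels, was 5.63 and 4.5 FPKM (-0.32). LAMB3 held 79.3% of beta chain FPKM with vehicle and 74.5% with XY101, while LAMA3 held 69.9% and 68.8% of alpha chain FPKM.

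**Figure D3:**
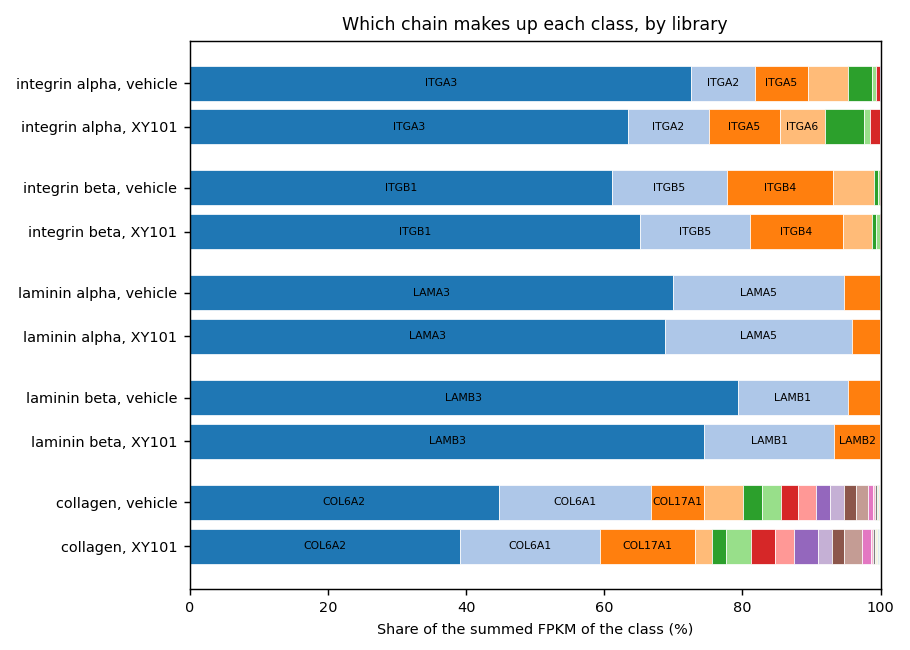
Share of the summed FPKM of each class of chains (horizontal axis, percent) in the vehicle and the XY101 library, over all genes of the class in the table, members and non-members; chains under 6% are drawn without a name. ITGA3 held 72.6% and 63.4% of the alpha subunits, and COL17A1 7.76% and 13.7% of the collagens.

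Among the collagen chains COL17A1 and COL16A1 were at least 1.5-fold higher and COL13A1 at least 1.5-fold lower. Of the 11 that passed the filter, 5 lay above 0 and 6 below, with a median of -0.08. At 1.5-fold, 27.3% of the 11 differed, beside 7.22% of all genes, which had a median of 0.09 and 64.4% above 0. COL17A1, the transmembrane collagen of hemidesmosomes, was 32.55 and 51.86 FPKM, 1.59-fold higher (log2 ratio 0.67, counting interval 0.61 to 0.74). After centring it stood at 0.58, just under 1.5-fold. COL7A1, which forms the anchoring fibrils beneath hemidesmosomes, was 11.12 and 14.07 FPKM (0.34, counting interval 0.25 to 0.43). The hemidesmosome partners of COL17A1 differed less: ITGA6 and ITGB4 stood at -0.15 and -0.03, the plakin genes PLEC at 60.24 and 62.9 FPKM (0.06) and DST at 2.02 and 2.27 FPKM (0.16), and the tetraspanin gene CD151 at 334.2 and 344.85 FPKM (0.05).

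COL16A1, a fibril-associated collagen, was 8.75 and 13.29 FPKM, 1.51-fold higher (log2 ratio 0.60, counting interval 0.47 to 0.74). COL13A1, a transmembrane collagen found at adhesion sites, was 11.91 and 7.32 FPKM, 1.62-fold lower (log2 ratio -0.69, counting interval -0.9 to -0.51, or -1.22 to -0.2 with the shortest coding transcript). By level among the 41 members COL13A1 held rank 18 with vehicle and 25 with XY101, and COL16A1 rank 23 and 20. COL12A1, another fibril-associated collagen, was 7.25 and 6.3 FPKM (-0.20), and COL18A1, the source of endostatin, was 10.56 and 10.0 FPKM (-0.08). COL18A1 shares 1563 exon bases with SLC19A1 on the opposite strand.

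Collagen VI forms beaded filaments beside the basement membrane. Its chains COL6A2 and COL6A1 were the most abundant collagen chains in FPKM, and neither differed by 1.5-fold. COL6A2 was 187.67 and 147.97 FPKM (log2 ratio -0.34, counting interval -0.39 to -0.3), and COL6A1, its neighbour on chromosome 21, was 92.34 and 76.92 FPKM (-0.26, counting interval -0.32 to -0.21). The ratio of COL6A2 to COL6A1 was 2.03 with vehicle and 1.92 with XY101. COL6A3, which supplies the third chain of the usual trimer and is not a member, was 0.07 and 0.08 FPKM. The collagen VI gene COL6A6, also not a member, was 0.26 and 0.34 FPKM. COL6A2, COL6A1 and COL17A1 made up most of the collagen FPKM, a sum of 419.44 and 378.41 over 40 collagen genes. COL6A2 held 44.7% and 39.1% of it, COL6A1 22.0% and 20.3% and COL17A1 7.76% and 13.7%.

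Other collagens were present as single chains. COL1A1, a chain of the main stromal fibril, was 7.01 and 9.82 FPKM (log2 ratio 0.48, counting interval 0.34 to 0.63), while its partner COL1A2 was 0.04 and 0.08 FPKM. COL5A2 was 8.52 and 7.97 FPKM (-0.10), while COL5A1 was 0.01 FPKM in both libraries and COL5A3 was listed at 0 in both. COL3A1, the neighbour of COL5A2 on chromosome 2, was 0.04 and 0.02 FPKM.

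Collagen IV, the network collagen of basement membranes, was present through the COL4A5 chain and not through the ubiquitous pair. COL4A5 was 10.67 and 13.21 FPKM (log2 ratio 0.31, counting interval 0.19 to 0.42), and COL4A6, which lies head-to-head with it on the X chromosome, was 0.48 and 0.71 FPKM. COL4A1 was 0.02 and 0.06 FPKM and COL4A2 0.20 and 0.28 FPKM. Each pair is transcribed away from a common stretch of DNA, shown here on the strand of the second gene with the same motifs in capitals, because one pair shares a low level and the other does not.
COL4A1 and COL4A2, chr13:110307158-110307283, all 126 bases between the starts: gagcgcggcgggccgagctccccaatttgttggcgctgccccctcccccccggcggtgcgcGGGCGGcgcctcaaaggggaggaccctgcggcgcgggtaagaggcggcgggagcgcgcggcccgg
COL4A6 and COL4A5, chrX:108439588-108439708, the 121 of 379 bases between the starts that lie in both promoter windows: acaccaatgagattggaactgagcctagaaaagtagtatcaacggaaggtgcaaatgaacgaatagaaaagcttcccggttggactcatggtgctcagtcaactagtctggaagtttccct
The first stretch held 1 GGGCGG and the second none of the motifs. COL4A5 exceeded COL4A6 by 22.2 times with vehicle and 18.6 times with XY101, so the genes on either side of the second stretch differed in level and leaned the same way between the libraries.

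**Figure D4:**
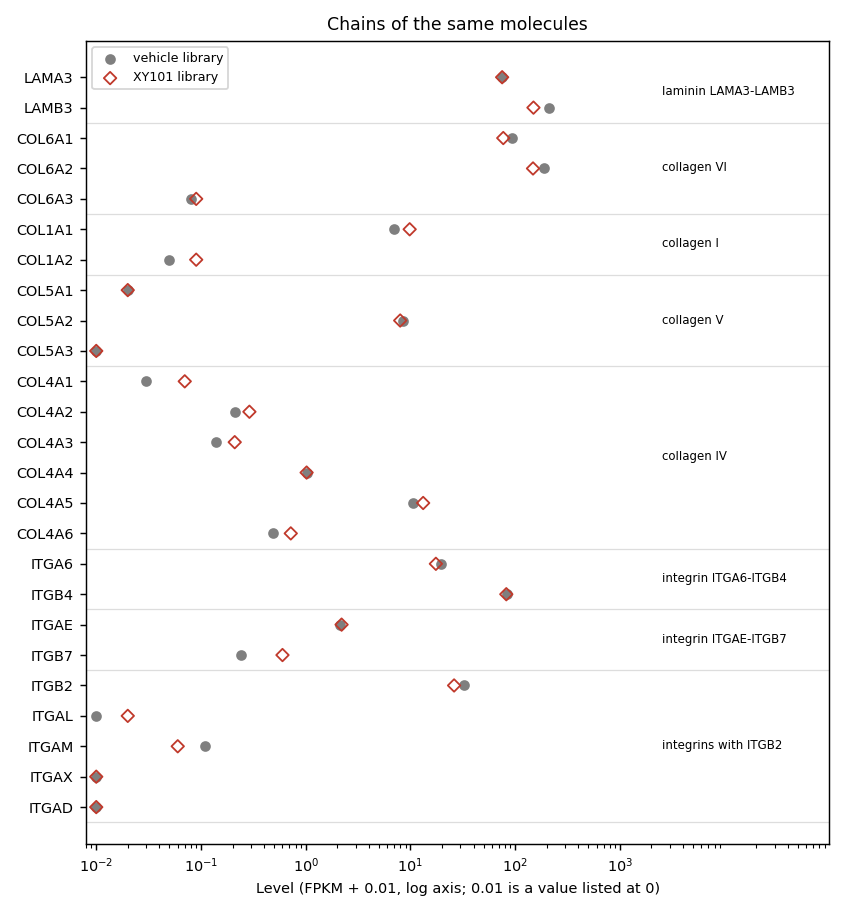
Level of chains that assemble into the same molecule, as FPKM + 0.01 on a log axis, with filled grey circles for the vehicle library and open red diamonds for the XY101 library; points at 0.01 are values listed at 0. COL6A3, COL1A2, COL5A1 and the alpha partners of ITGB2 lie more than 10 times below the other chain of their molecule in both libraries.

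The rest of the family added few expressed genes. Of 40 further integrin, laminin and collagen genes, 35 were in the table and 4 had a mean of at least 1 FPKM: COL8A1, COL9A2, COL4A4 and COL27A1. COL8A1, a short-chain collagen, was 23.45 and 9.56 FPKM, 2.44-fold lower (log2 ratio -1.29), a wider difference than that of any of the 31 members. COL9A2 was 3.43 and 5.18 FPKM (0.58), and COL4A4 and COL27A1 were close to 1 FPKM in both libraries.

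Genes that modify and secrete collagen showed no common direction. Of 28 on the list, 23 had a mean of at least 1 FPKM, with a median log2 ratio of 0.09, equal to that of all genes, 13 above 0 and 10 below. At 1.5-fold, 13.0% of the 23 differed, beside 7.22% of all genes. At least 1.5-fold higher was P4HA1, a catalytic subunit of the collagen prolyl hydroxylase, at 19.7 and 35.25 FPKM (0.84). At least 1.5-fold lower were P3H2, a collagen prolyl hydroxylase acting at the 3 position, at 27.73 and 17.02 FPKM (-0.70), and PXDN, the peroxidase that cross-links collagen IV, at 1.48 and 0.71 FPKM (-0.96). PXDN reached 1 FPKM in the vehicle library only and so passed the filter through the library where it is high. The collagen chaperone gene SERPINH1 was 62.51 and 80.49 FPKM (0.36), and the lysyl hydroxylase gene PLOD2 was 67.69 and 94.02 FPKM (0.47).

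Of 22 other matrix and basement membrane genes, 21 were in the table and 15 had a mean of at least 1 FPKM. Their median was -0.13, with 6 above 0 and 9 below. None differed by 1.5-fold, beside 7.22% of all genes. Fibronectin, the ligand of the ITGA5 receptor, was encoded by FN1 at 126.7 and 165.88 FPKM (0.39). The nidogens that join laminin to collagen IV were near 0, with NID1 listed at 0 and at 0.01 FPKM and NID2 listed at 0 in both libraries. The basement membrane proteoglycan genes HSPG2 and AGRN were 31.08 and 27.6 FPKM (-0.17) and 154.75 and 171.41 FPKM (0.15).

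**Figure D5:**
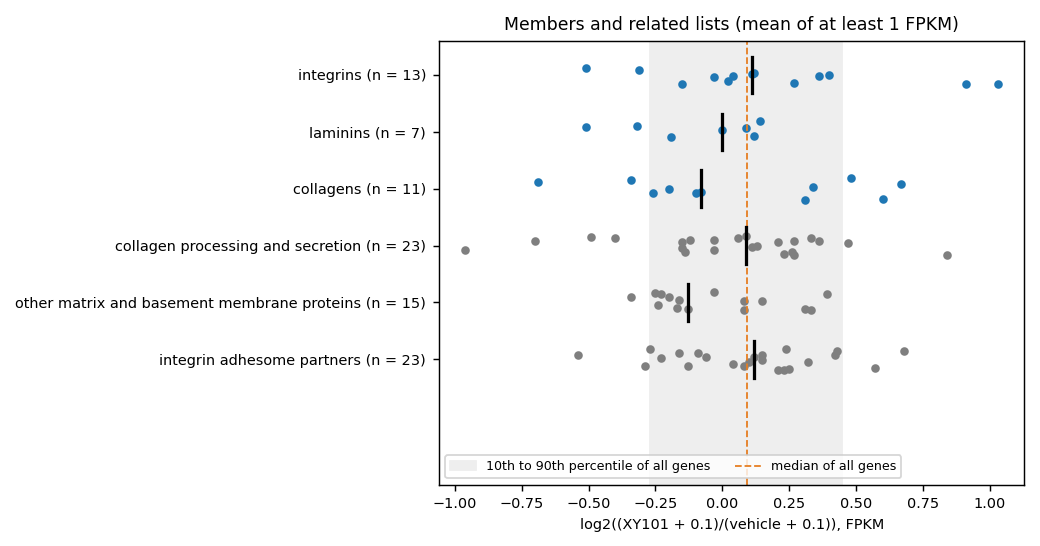
log2 ratio of XY101 to vehicle for genes with a mean of at least 1 FPKM (points), with each list's median as a black bar, the dashed line for the median of all genes and the grey band for the range between the 10th and 90th percentiles of all genes, -0.27 to 0.45. The list medians run from -0.13 for other matrix proteins to 0.12 for adhesome partners, and the points of every list lie on both sides of the dashed line.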

How the data were processed

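The deposited table holds FPKM made by the authors, rounded to 2 decimals, in 1 column per library; of its 17424 rows, 770 carry text where a gene should stand and were dropped. The paper's methods give a TruSeq library, GRCh37/hg19, BWA, Bowtie 2 and RSEM. The submitters' processing notes list limma 3.40.6, DESeq2, HTSeq 0.11.2, HISAT2, FastQC and GRCh38 but give no roles, and the labels name a KAPA library. The accounts differ, so how reads of overlapping genes were divided is not settled.

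Log2 ratios used a pseudocount of 0.1 FPKM and genes with a mean of at least 1 FPKM; no test was run. Transcript lengths and exon overlaps came from GENCODE 44 (GRCh37) and promoters from RefSeq (GRCh38.p14). Depth was the value, searched jointly with a length offset, that turned the most low FPKM of genes with 1 annotated transcript into whole fragments, over at least 60 values. All members were named; of other lists, genes at 1.5-fold or more (up to 6), and genes that share a complex or promoter with a member. Other genes that are no members were named after their values were seen. A gene of these lists is not reported here. Members and lists were chosen with earlier results of these data known. The ratio and fold-call steps were tested on simulated data, and the depth estimate and the counting intervals were not. Python 3.11.15, pandas 2.3.3, numpy 2.4.6 and scipy 1.17.1 were used.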

Additional observations from a re-analysis of the deposited data

How the results depend on the processing

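The 6 summary values were recomputed with a pseudocount of 0.01 or 1 FPKM, without a filter, with a mean of at least 5 FPKM, centred on the median gene, and scaled to a common total or to the upper quartile; 33 of 42 values stayed within 1.5 times (counts) or within the typical counting interval (medians). The count of members at 2-fold, 1 as reported, was 0 with 1 FPKM, with a mean of at least 5 FPKM, when centred and under upper quartile scaling. The count at 1.5-fold, 5 as reported, was 3 with a mean of at least 5 FPKM, which drops ITGB3 and ITGA1. Without a filter the integrin median was 0.00 and the collagen median 0.32, over 41 members including those near 0 FPKM. The laminin median was -0.09 when centred and -0.07 under upper quartile scaling. Of 155 values of single members, 124 moved by less than their counting interval and 31 by more, and no member past 1.5-fold changed sign; ITGA2, ITGAE, ITGB4 and LAMA3, all near 0, stood on different sides of 0 under different scalings. No paired analysis was possible because each condition has 1 library. Depth limits the members under 1 FPKM, which correspond to at most 97 fragments.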

Other observations

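Proteins that link integrins to the cytoskeleton were near the level of all genes. Of 28 adhesome genes, 23 had a mean of at least 1 FPKM, with a median log2 ratio of 0.12, 15 above 0 and 8 below. At 1.5-fold, 4.35% of the 23 differed, beside 7.22% of all genes. At least 1.5-fold higher was NEDD9, a scaffold phosphorylated downstream of integrins, at 32.45 FPKM in the vehicle library and 52.19 FPKM in the XY101 library (log2 ratio 0.68), and none was at least 1.5-fold lower. Its relative BCAR1 was 21.56 and 23.98 FPKM (0.15). The tensin gene TNS3 was 55.19 and 82.12 FPKM (0.57) and the kinase gene SRC 25.2 and 33.69 FPKM (0.42). The actin cross-linker gene ACTN4 was 202.37 and 138.73 FPKM (-0.54). The integrin activators TLN1 and FERMT1 were 45.52 and 43.79 FPKM and 25.43 and 27.59 FPKM.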
